A study of Mus musculus with 8 samples.

Results

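Death receptors and the proteins that pass on their signals were followed as 9 genes in mouse intestinal organoids given TGF-beta. The genes were chosen by name and role, with no value in the rule but with earlier results of these data known. They are the receptors Fas, Tnfrsf10b and Tnfrsf1a, the adaptors Tradd, Fadd, Ripk1 and Traf2, and the death-associated kinases Dapk1 and Dapk2. The array names 19057 genes through probes of a single symbol, and 8 of the 9 are among them. With TGF-beta, Tradd and Dapk2 rose modestly and Fadd was lower on its brightest probes, all 3 close to the threshold of the test, and no receptor of the 3 passed it.

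The organoids were Apc-mutated epithelial cultures on a C57Bl background (age 3 to 4 months), and all of them received tamoxifen, followed by a medium free of growth factors. The 4 TGF-beta samples then had 3 ng/ml of TGF-beta for 18 h, and the 4 untreated samples had none. All groups therefore share the Apc mutation, the tamoxifen and the growth factor withdrawal, and organoids with intact Apc were not analysed here. The sources used here name neither the promoter behind the tamoxifen-dependent step nor whether the 4 samples of a group came from separate cultures, so the p-values measure only the spread between these samples.

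Death receptors are members of the tumour necrosis factor (TNF) receptor family with a death domain in their cytoplasmic tail. Fas and the TRAIL receptor Tnfrsf10b recruit Fadd, which brings in the initiator caspase Casp8. The TNF receptor Tnfrsf1a recruits Tradd, which in turn binds Ripk1 and Traf2, a route that mostly activates NF-kappaB and can pass to Fadd and Casp8. Intestinal epithelial cells die readily on TNF or Fas stimulation when this balance is disturbed. Dapk1 is a calmodulin-dependent kinase that carries a death domain of its own, and human DAPK1 is known as a TGF-beta responsive gene in hepatoma cells. Dapk2 is a smaller relative without that domain.

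Each sample was read on 1 Illumina bead array, and between 14554 and 16626 probes per array were detected above the negative controls. Values are background-corrected, quantile-normalized intensities on the log2 scale, and each difference subtracts the untreated mean; its standard error (SE) is that of limma's fit over all tested probes. Probes entered the test with a detection p below 0.05 on 4 or more of the 8 arrays, and a probe passed when its p, adjusted by Benjamini and Hochberg over all 15573 tested probes, was under 0.05. The arrays divided into replicates 1 and 4 against replicates 2 and 3 in both groups. Xist, expressed from a silenced X chromosome, lay at 4.45 to 4.69 in the first set and at 9.30 to 10.18 in the other. Eif2s3y, a gene of the Y chromosome, was the reverse, at 8.20 to 8.48 in the first set and 4.42 to 4.72 in the other. By both genes the first set reads as male and the other as female. Sex cannot be told apart from other differences between the sets. The epithelial label held, since 7 of 8 epithelial markers were detected on all arrays, led by Krt8 at 14.72 ± 0.17 with TGF-beta and 13.41 ± 0.17 untreated (SD, n = 4 each). Summed linear intensity of the 8 epithelial markers was 46032 to 55840 with TGF-beta and 20901 to 24703 untreated. Of 8 mesenchymal markers 6 were detected on no array, collagen genes included. The sum of the 8 was 216 to 274 with TGF-beta and 206 to 225 untreated. Their brightest, Acta2, was detected on 7 arrays, at 5.92 ± 0.77 with TGF-beta and 5.22 ± 0.21 untreated (SD, n = 4 each). The 6 immune markers with a probe, led by Cd14, summed to 298 to 442 with TGF-beta and 221 to 372 untreated. Of these 2 were detected on all 8 arrays, and Itgam on no array. The 5 endothelial markers summed to 126 to 141 with TGF-beta and 131 to 156 untreated, and their brightest, Kdr, was detected on 1 array. The part of these markers in the results was not tested, and a change in the share of a cell type cannot be told apart from a change within cells.

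Of the 9 genes, 8 had named probes, 25 in all, and 15 of these probes from 7 genes were tested. Ripk1 (chromosome 13), the kinase at which the TNF receptor signal turns to survival or death, has no probe named in the annotation used here. Dapk1, also on chromosome 13, had 4 probes and none was tested. Its probes were detected on 0 to 2 of the 8 arrays, 3 of them on no array, and their values of 4.29 to 5.48 overlapped the lowest detected signals of the arrays, 5.04 to 5.23. Without the detection filter, the Dapk1 differences lay between -0.13 and -0.01 (limma, adjusted p from 0.542 to 0.991). The other untested probes belong to Fas (2), Tnfrsf10b (3) and Tradd (1), and were detected on at most 2 arrays each. A gene with several tested probes was represented by the brightest.

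Taking the brightest probe of each of the 7 tested genes, 2 rose and none (0) fell by limma's adjusted p. Over all 9062 tested genes, 9.57% rose and 9.88% fell by adjusted p, 19.4% together. At an unadjusted p under 0.05 Fadd was also lower, making 2 higher and 1 lower, beside 14.9% and 18% of all tested genes. The median difference of the 7 genes was -0.01, against -0.05 for all tested genes. In 3 of the 7 the groups did not overlap, which was so for 24.8% of all tested genes. With samples of the same replicate number kept as a block, 2 rose and 1, Fadd, fell, while 31.6% of all tested genes passed.

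**Figure D1:**
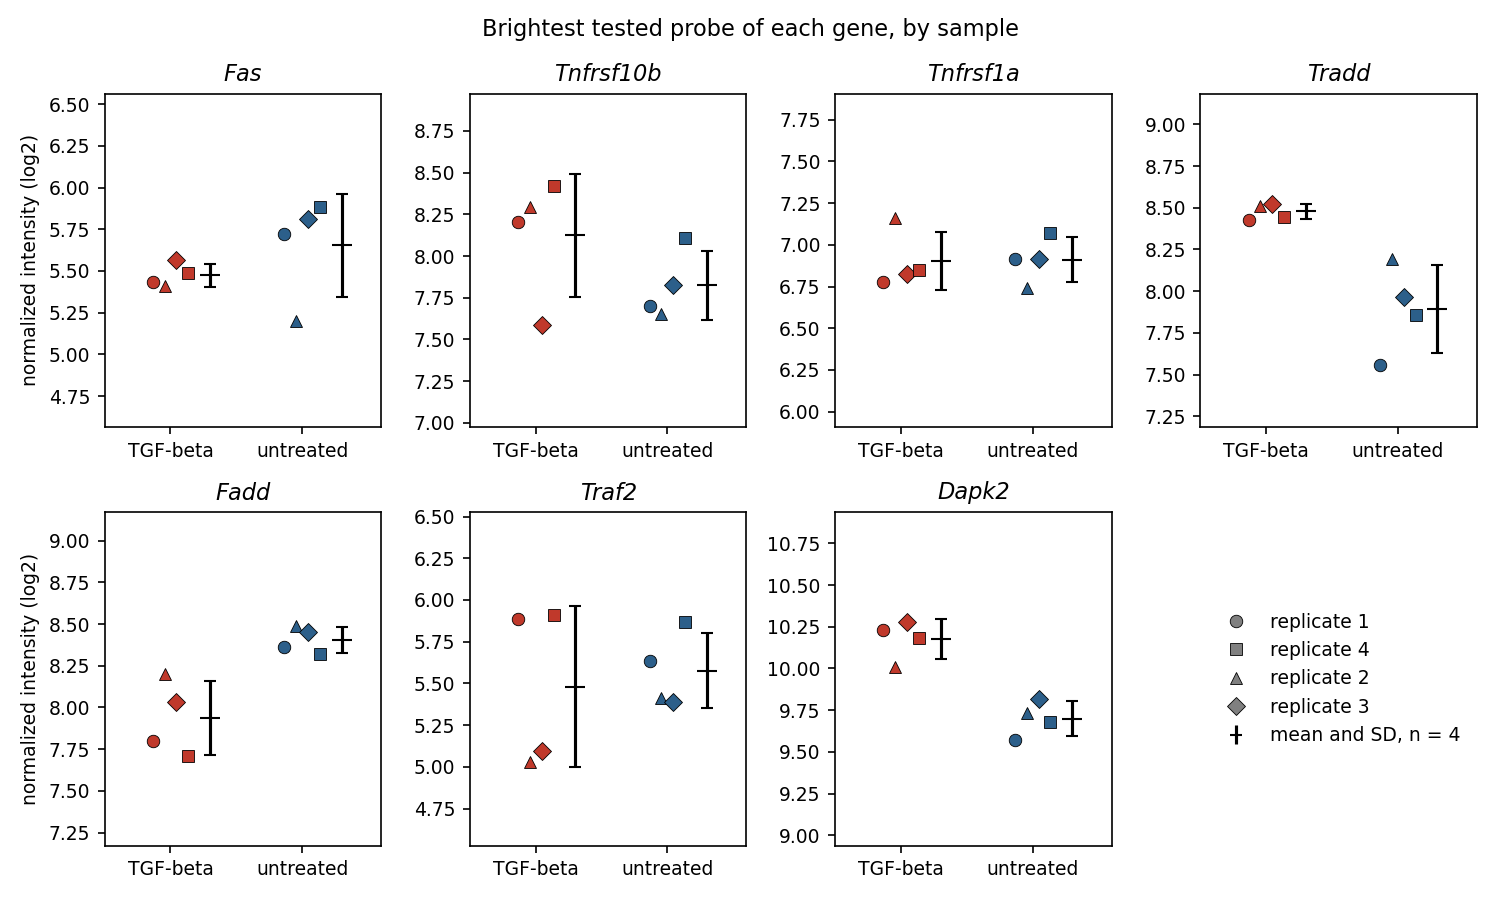
Normalized intensity (log2) of the brightest tested probe of 7 genes in each TGF-beta and untreated sample, with the mean and SD (n = 4) beside the points; every panel spans 2 log2 units and marker shape gives the replicate number. The TGF-beta samples lie above all untreated samples for Tradd and Dapk2 and below them for Fadd, while the groups overlap for Fas, Tnfrsf10b, Tnfrsf1a and Traf2.

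Among the receptors, Tnfrsf10b (chromosome 14), through which TRAIL triggers death, read on its brightest probe 8.20, 8.29, 7.59 and 8.42 in TGF-beta replicates 1 to 4 and 7.70, 7.65, 7.83 and 8.11 in untreated replicates 1 to 4. TGF-beta replicate 3 was the lowest of all 8 samples and TGF-beta replicates 1, 2 and 4 were the highest, so the groups overlapped. The difference was +0.30 (SE 0.198, 95% interval -0.14 to 0.74, limma adjusted p = 0.343). The next probe of Tnfrsf10b gave +0.22 (SE 0.303, adjusted p = 0.682) and was detected on 7 arrays. The upper end of its interval lies above the rise measured for Tradd.

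Fas (chromosome 19), the receptor of Fas ligand, was near the detection limit. Its brightest probe gave 5.43, 5.41, 5.57 and 5.49 in TGF-beta replicates 1 to 4, against 5.72, 5.20, 5.81 and 5.88 in untreated replicates 1 to 4. The TGF-beta samples sat close together, inside the range of the untreated samples, whose replicate 2 was the lowest of all and whose other 3 were the highest. The difference was -0.18 (SE 0.167, 95% interval -0.55 to 0.19, limma adjusted p = 0.519), and the largest detection p of this probe was 0.031. A second tested Fas probe gave -0.20 (SE 0.226, adjusted p = 0.613) with 4 of 8 arrays detected.

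Tnfrsf1a (chromosome 6), the receptor that most cells use to sense TNF, was detected by 3 probes on all 8 arrays. Its differences were -0.01 (95% interval -0.32 to 0.31), +0.04 (-0.31 to 0.40) and -0.06 (-0.45 to 0.34), with limma adjusted p from 0.873 to 0.982. The brightest probe ranged from 6.78 to 7.16 with TGF-beta and from 6.74 to 7.07 untreated. The groups overlapped on all 3, and a rise above 0.40 or a decrease beyond -0.45 lies outside all 3 intervals.

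Tradd (chromosome 8), the first adaptor on the TNF receptor, had the smallest adjusted p of the 7 tested genes. Its tested probe gave 8.43, 8.51, 8.52 and 8.45 in TGF-beta replicates 1 to 4 and 7.56, 8.19, 7.96 and 7.86 in untreated replicates 1 to 4. All TGF-beta samples lay above all untreated ones and close together (SD 0.05, n = 4), while the untreated samples had an SD of 0.26. The rise was 0.59 (SE 0.154, 95% interval 0.24 to 0.93, limma adjusted p = 0.025), with pairs of the same replicate number higher by 0.32 to 0.87. Replicates 1 and 4 rose by 0.73, and replicates 2 and 3 alone gave +0.44 with an adjusted p of 0.155. Adjusted p was 0.011 with the replicate block. Leaving out TGF-beta replicate 2, 3 or 4 or untreated replicate 1, 3 or 4 took it to between 0.0502 and 0.0695, and with median scaling it was 0.223, where the rise of 0.40 compares with a median of -0.19 over all genes. The other Tradd probe was detected on no array.

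Fadd (chromosome 7), which links Fas and Tnfrsf10b to Casp8, had 4 tested probes that did not give the same answer. The brightest gave 7.80, 8.20, 8.03 and 7.71 in TGF-beta replicates 1 to 4 and 8.36, 8.49, 8.45 and 8.32 in untreated replicates 1 to 4. The next gave 7.55, 7.68, 7.70 and 7.28 with TGF-beta and 7.96, 8.19, 8.04 and 7.93 untreated. On both, every TGF-beta sample was below every untreated sample, and all 4 numbered pairs were lower. The brightest probe gave -0.47 (SE 0.146, limma adjusted p = 0.05045) and just missed, and the next fell by 0.48 (SE 0.144, adjusted p = 0.045). With the replicate block the brightest also passed, at an adjusted p of 0.021. The call on the next probe was lost with any 1 of the 8 samples left out (adjusted p from 0.0511 to 0.120), and the brightest passed in 11 of 22 other settings.

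The 2 dimmer Fadd probes moved less. The third gave -0.13 (SE 0.189, limma adjusted p = 0.708) at levels of 6.40 to 7.21, detected on all 8 arrays. The fourth was detected on 4 arrays and gave -0.07 (SE 0.267, adjusted p = 0.902). Its numbered pairs went opposite ways: replicates 1 and 4 gave +0.80 and +0.54, while replicates 2 and 3 gave -0.92 and -0.68, and the test of that difference between the sets gave an adjusted p of 0.068. Over the 15 tested probes of the 7 genes the next smallest adjusted p of this test was 0.543, and 0.0128% of all tested probes passed it. In all, 3 of the 15 probes rose and 1 fell, beside 17.7% of all tested probes, and 4 had groups that did not overlap, beside 22.9%.

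**Figure D2:**
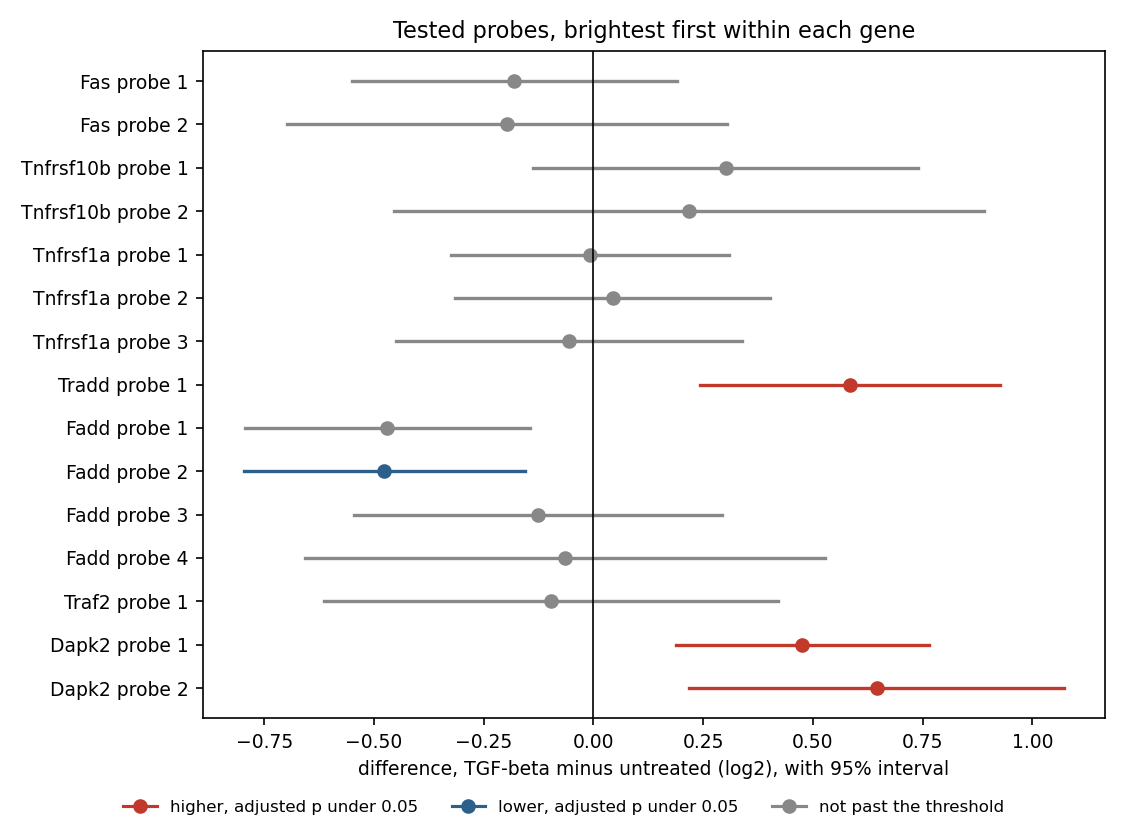
Difference of TGF-beta minus untreated (log2) for the 15 tested probes, with 95% intervals of limma's fit; probes of a gene run from the brightest at the top, and colour marks those past the threshold. Both Dapk2 probes and the Tradd probe lie above 0, the 2 brightest Fadd probes lie near -0.47 and all intervals of Fas, Tnfrsf10b, Tnfrsf1a and Traf2 cross 0.

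Traf2 (chromosome 2), the ubiquitin ligase adaptor of the TNF receptor that favours NF-kappaB and survival, gave 5.88, 5.03, 5.09 and 5.91 in TGF-beta replicates 1 to 4 and 5.64, 5.41, 5.39 and 5.87 in untreated replicates 1 to 4. In both groups replicates 1 and 4 were above replicates 2 and 3, and over the 8 arrays these sets did not overlap. Among all tested probes 13.9% had sets that did not overlap. The treatment difference was -0.10 (SE 0.233, 95% interval -0.61 to 0.42, limma adjusted p = 0.827), with +0.14 for replicates 1 and 4 against -0.34 for replicates 2 and 3. The probe was detected on 3 TGF-beta and 4 untreated arrays.

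Dapk2 (chromosome 9) rose on both of its probes. The brighter gave 10.23, 10.01, 10.28 and 10.19 in TGF-beta replicates 1 to 4 and 9.57, 9.73, 9.82 and 9.68 in untreated replicates 1 to 4, and the groups did not overlap. Its rise was 0.48 (95% interval 0.19 to 0.76, 1.39-fold, limma adjusted p = 0.030), with all numbered pairs higher, by 0.27 to 0.66. The dimmer probe gave 6.19, 6.68, 6.99 and 6.83 with TGF-beta and 6.07, 6.26, 6.04 and 5.75 untreated. There TGF-beta replicate 1 fell below untreated replicate 2, and the rise was 0.65 (SE 0.192, 1.56-fold, adjusted p = 0.043). With the replicate block the probes had adjusted p of 0.021 and 0.022.

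The call on the brighter Dapk2 probe was lost without TGF-beta replicate 1, 3 or 4 or untreated replicate 1, 2 or 4 (limma adjusted p from 0.0630 to 0.0876), and that on the dimmer probe in 14 of 21 other settings, including that without the detection filter. With median scaling the brighter probe gave +0.31 (adjusted p = 0.382) and the dimmer +0.48 (adjusted p = 0.208), or +0.49 and +0.67 relative to the median of all genes under that scaling. Dapk3, a further kinase of the family, gave +0.15 (SE 0.187, adjusted p = 0.638), and Stk17b, a related kinase, +0.12 (SE 0.200, adjusted p = 0.747).

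**Figure D3:**
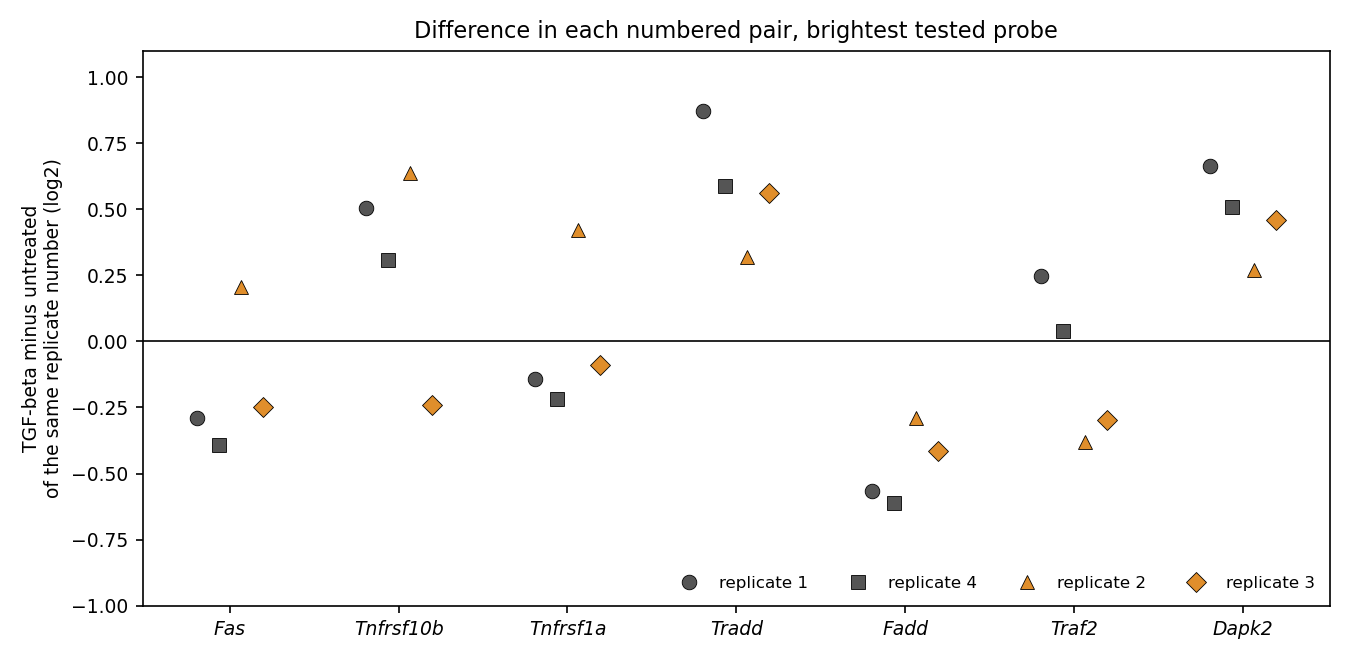
TGF-beta minus untreated (log2) within each replicate number, for the brightest tested probe of 7 genes; grey marks replicates 1 and 4 and orange replicates 2 and 3. All 4 pairs lie above 0 for Tradd and Dapk2 and below 0 for Fadd, the sets fall on opposite sides of 0 for Traf2, and replicate 2 or replicate 3 departs from the other pairs for Fas, Tnfrsf1a and Tnfrsf10b.

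Promoter sequences from RefSeq (GRCm38.p6) were at hand for 7 of the 9 genes, but not for Tradd, which also passed the threshold, or Tnfrsf10b. Those of Dapk2 and Fadd are shown because they belong to genes with a probe past the threshold. Each line gives the 250 bases before the annotated start, 5′ to 3′ on the strand of the gene, Dapk2 at chr9:66157976-66158225 on the plus strand and Fadd at chr7:144582442-144582691 on the minus strand. Capitals mark matches, on either strand, to CAGAC, the short DNA element that the TGF-beta effectors Smad3 and Smad4 bind.
Dapk2: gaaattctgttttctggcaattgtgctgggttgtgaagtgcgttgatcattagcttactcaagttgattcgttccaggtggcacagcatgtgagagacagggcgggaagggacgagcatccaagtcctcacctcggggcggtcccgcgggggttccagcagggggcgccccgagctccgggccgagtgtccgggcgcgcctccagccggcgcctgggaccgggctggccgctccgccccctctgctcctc
Fadd: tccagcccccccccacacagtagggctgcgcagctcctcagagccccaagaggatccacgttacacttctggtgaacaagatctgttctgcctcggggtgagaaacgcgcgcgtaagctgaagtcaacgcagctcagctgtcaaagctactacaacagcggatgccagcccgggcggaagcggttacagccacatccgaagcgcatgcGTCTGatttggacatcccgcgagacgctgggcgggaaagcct
Fadd has 1 match, on the opposite strand, starting 42 bases before the annotated start, and Dapk2 has none in this window. Of the 7 genes 2, Fadd and Traf2, hold a match, and 42.2% of 32851 promoter windows of the same length do. A match is a run of letters only, and none in a window says nothing of the factor.

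Some genes had profiles over the 8 arrays close to those that rose, by the root-mean-square difference of profiles centred on their means, out of 9061 genes compared. Nearest to Tradd were Gnas (0.08 log2 units, difference +0.65, limma adjusted p = 0.010) and Gemin7 (0.10, +0.56, adjusted p = 0.030). Nearest to Dapk2 were Cmas (0.08, +0.42, adjusted p = 0.033) and Igfbp4 (0.09, +0.45, adjusted p = 0.034). All were picked for likeness to a gene that rose on the same arrays. Their own rises and adjusted p largely follow from that choice.

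The rest of the death receptor pathway was covered by 78 further genes in 6 lists, of which 48 were tested. Of these, 8 rose and 3 fell, beside the 9.57% and 9.88% of all tested genes, and their median difference was +0.16. The lists were chosen with earlier results of these data known. Cd40, among the 8, met the detection filter through TGF-beta arrays alone. With the replicate block, 13 rose and 5 fell, beside 1302 higher and 1566 lower of all 9062 tested genes. Without TGF-beta replicate 2, untreated replicate 1 or untreated replicate 4 only 1 fell in each case. Median scaling left 7 higher and 2 lower, beside 499 and 999 of all 9062 tested genes.

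Ligands were hardly seen. Of 8 TNF family ligands, including Fasl and Tnfsf10 (TRAIL), only Tnf was tested, at 5.51 ± 0.19 with TGF-beta and 5.20 ± 0.31 untreated (SD, n = 4 each; +0.31, SE 0.182, limma adjusted p = 0.285), and it was detected on 3 untreated arrays. The other 7 were below the detection filter, which does not show that they are absent.

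Larger differences than in any of the 7 tested genes lay among other members of the TNF receptor family. There 4 of 8 tested genes rose and 2 fell, beside 9.57% and 9.88% of all tested genes. Cd40, among those that rose, met the detection filter through its 4 TGF-beta arrays alone. Its place in this count is therefore not independent of the filter. Tnfrsf11b (osteoprotegerin), a secreted decoy that binds RANKL and TRAIL, gave 11.78, 11.03, 11.48 and 11.74 in TGF-beta replicates 1 to 4 and 8.53, 7.79, 7.92 and 7.98 in untreated replicates 1 to 4. The groups lay far apart, with a rise of 3.45 (SE 0.215, 10.9-fold, limma adjusted p = 1.1e-05). Tnfrsf22, a mouse TRAIL receptor without a death domain, gave 11.54, 10.62, 10.72 and 11.39 with TGF-beta and 8.99, 7.23, 7.65 and 9.58 untreated. Its rise was 2.70 (SE 0.470, 6.50-fold, adjusted p = 0.0034), and whether the probe also reads its close relative Tnfrsf23 was not tested.

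Cd40, a receptor without a death domain, averaged 7.38 ± 0.26 with TGF-beta and 4.82 ± 0.17 untreated (SD, n = 4 each). It was detected on no untreated array, so it was at least 4.89-fold higher, against the higher of its own and the lowest detected signal of each untreated array (limma adjusted p = 1.2e-05). That p-value belongs to a probe tested only because the TGF-beta arrays detected it. Without the detection filter the adjusted p was 5.3e-05. This bound holds only for the brightest Cd40 probe and the background-corrected values. The difference of +2.56 between the means was +1.69 with an offset of 50. It was +1.03 both without background correction and on the authors' table, and +2.08 with the tested probes of the gene averaged. Tnfrsf12a, the receptor of the cytokine TWEAK, rose by 1.75 (SE 0.251, adjusted p = 0.0012), with +1.11 in replicates 1 and 4 alone against +2.38 in replicates 2 and 3 alone (adjusted p of the difference between the sets = 0.121). Tnfrsf19, a receptor known as a Wnt target, fell by 1.70 (SE 0.329, adjusted p = 0.0059), and gave -1.23 with its tested probes averaged. Its sets gave -0.86 for replicates 1 and 4 and -2.53 for replicates 2 and 3 (adjusted p of their difference = 0.056). Tnfrsf18 fell by 1.07 (SE 0.303, adjusted p = 0.035) but was detected on only 1 TGF-beta array, so the size of its decrease is uncertain. It was -0.38 without background correction and on the authors' table, and it missed the threshold in 12 of 21 other settings. The death domain receptor Tnfrsf21 gave -0.80 (SE 0.314, adjusted p = 0.110), lower in all 4 numbered pairs, and passed with the replicate block (adjusted p = 0.0019). With that block 4 of the 8 receptors in this list rose and 3 fell, beside 1302 and 1566 of all 9062 tested genes. Ltbr, the lymphotoxin receptor, gave +0.02 (SE 0.191, adjusted p = 0.970).

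Partners of the receptor complexes were next in the chain. By limma's adjusted p 3 of 22 tested rose and 0 fell, beside 9.57% and 9.88% of all tested genes. Unadjusted, 8 were higher and 0 lower at p under 0.05, beside 14.9% and 18% of all tested genes. With the replicate block 6 rose and 0 fell, beside 1302 and 1566 of all 9062 tested genes. Casp8, the caspase that Fadd recruits, averaged 10.43 ± 0.14 with TGF-beta and 9.32 ± 0.23 untreated (SD, n = 4 each), with no overlap and a rise of 1.11 (SE 0.153, 2.15-fold, adjusted p = 0.00097). Tnfaip3 (A20), which restrains NF-kappaB signalling and death at the TNF receptor, rose by 1.08 (SE 0.207, adjusted p = 0.0056, detected on 3 untreated arrays), and by 0.40 without background correction and on the authors' table, where it also passed. Its binding partner Tnip1 rose by 0.78 (SE 0.157, adjusted p = 0.0071) and missed with median scaling (adjusted p = 0.067) and in 1 other setting. Averaging the tested Tnip1 probes gave +0.56. Cflar, the Casp8 relative that blocks it at the receptor, gave +0.90 (SE 0.290, adjusted p = 0.057) and passed with the replicate block (adjusted p = 0.0024). So did Ikbkb and Ikbkg, subunits of the kinase complex that activates NF-kappaB, at +0.50 and +0.38 (adjusted p with the block of 0.020 and 0.041, without it 0.101 and 0.114). The necroptosis genes Ripk3 and Mlkl gave +0.16 and +0.06 (SE 0.178 and 0.139), and Birc2, a ligase bound to Traf2, -0.05 (SE 0.125), with adjusted p from 0.593 to 0.845.

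Downstream of the complexes, 0 of 7 tested executioner genes passed in either direction by limma's adjusted p, beside 19.4% of all tested genes. At an unadjusted p under 0.05 the count was also 0, beside 14.9% higher and 18% lower of all tested genes. With the replicate block 1 rose, beside 1302 of all 9062 tested genes. This was the effector caspase Casp6, at +0.50 and higher in all 4 numbered pairs (adjusted p = 0.018, without the block 0.378). The others include Bid, which carries the signal to mitochondria, at +0.41 (SE 0.193, adjusted p = 0.182). Among 8 tested NF-kappaB genes, 1 rose and 1 fell, beside 9.57% and 9.88% of all tested genes. Bcl3, a nuclear partner of NF-kappaB, rose by 1.19 (SE 0.199, adjusted p = 0.0029), and by 0.646 without background correction and 0.645 on the authors' table, where it also passed. Sod2, a mitochondrial superoxide dismutase, fell by 0.51 (SE 0.139, adjusted p = 0.029) and missed the threshold in 9 of 22 other settings. Nfkbia, the inhibitor induced by NF-kappaB, gave +0.41 (SE 0.177, adjusted p = 0.143), and Tnfaip2, a gene induced by TNF, gave -0.79 (adjusted p = 0.139). Both passed with the replicate block, at adjusted p of 0.038 and 0.018. With that block 2 of the 8 NF-kappaB genes rose and 2 fell, beside 1302 and 1566 of all 9062 tested genes.

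**Figure D4:**
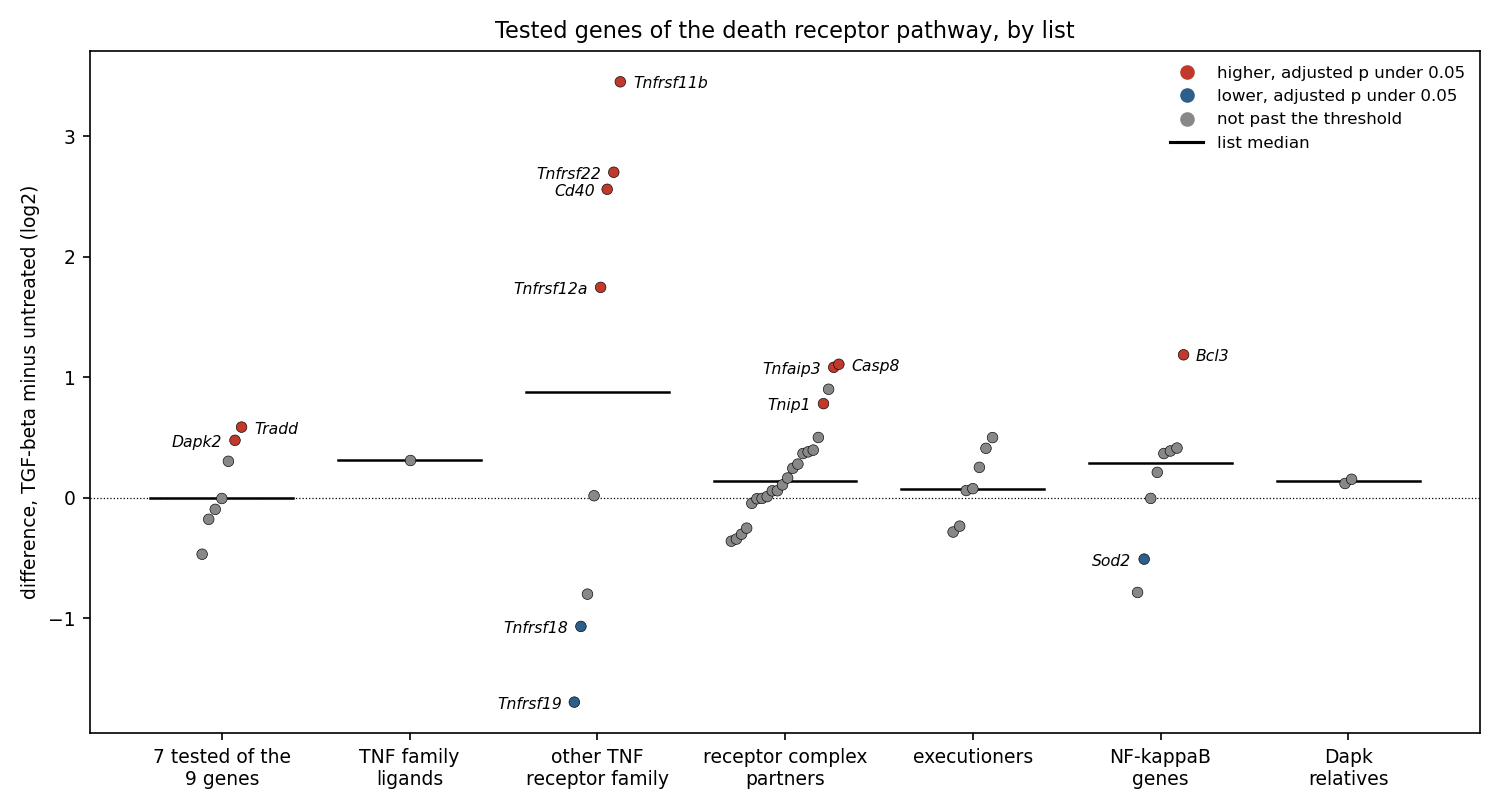
Difference of TGF-beta minus untreated (log2) of each tested gene in 7 lists, ordered by size within a list, with the list median as a bar and colour for genes past the threshold. The 7 tested genes described here span -0.47 to 0.59, while the other TNF receptor genes span -1.70 to 3.45.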

How the data were processed

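The authors deposited non-normalized signal intensities with a detection p-value per probe and array, per the file headers, for 45281 probes. They also deposited a table of log2 values, which appear quantile normalized, with equal distributions on all arrays; the sources used here give neither its method nor the scanner software. All columns were used (0 left over). From the intensities, background was corrected with normexp using the detection p-values (offset 16), followed by quantile normalization and log2. Tests used limma 3.58.1 (R 4.3.3; lmFit and eBayes, group alone, two-sided, 8 samples). Gene symbols came from the platform annotation (34885 probes with a single symbol, 18 with several, 10378 not listed). 0 symbols needed an update against a RefSeq table of GRCm38.p6. Arrays hold no reads, so their number limits the precision. The fit was tested on simulated data.

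The 9 genes, the lists and the alternatives were chosen with earlier results of these data known. Genes named are the 9, up to 4 per direction of each other list past the threshold, and the 2 closest profiles of each of the 9 past it. Tnf, Tnfrsf21, Ltbr, Cflar, Ikbkb, Ikbkg, Ripk3, Mlkl, Birc2, Casp6, Bid, Nfkbia, Tnfaip2, Dapk3 and Stk17b lie outside that rule: they were picked with their values in view.

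Replicate numbers were taken to pair the samples, because, after subtracting each group's mean, the samples sharing a number correlated (r of 0.534, 0.512, 0.514 and 0.554). The labels tie the numbers to nothing. Each TGF-beta sample correlated best with the untreated sample of its own number. How much of the pairing is the division into replicates 1 and 4 against 2 and 3 was not tested. Alternatives were other background, scaling, filter, variance and weight settings, the authors' log2 table, blocks, each set alone, averaged probes, a stricter threshold and each sample left out. Python 3.11.15 with matplotlib 3.10.9 made the figures.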

Additional observations from a re-analysis of the deposited data

Results flagged for a closer look

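Within the 52 groups of 4 samples checked (15 tested probes of the 9 genes and 11 other named genes, in both treatments), 2 held a sample far from the rest by Dixon's test, and chance alone marks about 1 group in 20. The dimmest Tnfrsf1a probe was 6.18 in TGF-beta replicate 4, against 6.67 to 6.75 in the other TGF-beta samples. Cd40 was 4.56 in untreated replicate 4, against 4.89 to 4.91 in the other untreated samples, all of them below detection.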

How the results depend on the processing

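Counts of the 9 genes rest on values close to the threshold. In place of 2 genes higher, 0 passed with median scaling, within replicates 2 and 3 alone and at a threshold of 0.01, and 1 within replicates 1 and 4 alone. In place of 0 genes lower, 1 (Fadd) passed without background correction, with median scaling, on the authors' table, with an offset of 50, the stricter filter (which tested 5 of the 9 genes), trended and robust variances, array weights, the replicate block, the set block and within replicates 1 and 4 alone. Leaving out a sample gave 0 to 1 higher and 0 to 1 lower. Of the other pathway genes, the replicate block and the set block each gave 13 higher and 5 lower, while cyclic loess and the threshold of 0.01 each left 1 lower, and leaving out a sample gave 8 to 10 higher and 1 to 2 lower. Over all tested genes, 2868 passed with the replicate block, 2888 with the set block and 836 at the threshold of 0.01, against 1762, and 1245 to 1561 with a sample left out. Median scaling moved the share of higher genes among those past the threshold to 33.3%, against 49.2%. Tradd, Dapk2 and Fadd kept their direction in all 22 alternative settings. Tnfrsf1a turned to +0.0302 with cyclic loess and +0.17 in replicates 2 and 3 alone, and ran from -0.0936 to 0.0464 with a sample left out. Traf2 turned to +0.0749 with array weights and +0.14 in replicates 1 and 4 alone, and ran from -0.240 to 0.0525 with a sample left out. The test of a difference between the sets called 0 of the 7 tested genes on their brightest probes in 5 settings added after seeing the data. The causes were not tested. Signal near background limits Fas, Traf2 and Dapk1.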
